A study of Mus musculus with 48 samples.

Results

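The livers of BM mice, whose hepatocytes carry activated β-catenin together with a MYC transgene, were compared with those of WT mice 10 days after induction. The comparison took the 6 day 10 libraries titled BM and the 6 titled WT, which are 12 of the 48 libraries and 6 of the 24 mice of the series, with 3 mice a group. For scale, the count of genes that rest on a single mouse also drew on the 12 day 10 libraries of groups B and M. B mice carry the β-catenin mutation alone and M mice the MYC transgene alone. Each mouse gave a library of cytoplasmic RNA and a library of ribosome-protected fragments (RPFs), short stretches of mRNA that a translating ribosome shields from nuclease. Of the genes measured, 11125 passed the count filter in RNA and 11346 in RPFs, and 10431 passed in both.

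The genotype of the BM mice is given as Ctnnb1ex3/+; R26-LSL-MYC and that of the controls as Wild-type. In BM, Cre deletes exon 3 of 1 *Ctnnb1* allele, which leaves a β-catenin that escapes degradation, and opens a MYC transgene at the *Rosa26* locus. All mice, WT included, had received AAV8.TBG.Cre through the tail vein, and the TBG promoter restricts Cre to hepatocytes, so other liver cells kept their alleles. Mice were labelled male and were 2 to 4 months old, at least 20 g and of mixed C57BL/6 background, and each library came from 1 animal. The Y-linked gene *Ddx3y* was present in the RNA of all 6 mice, at 134, 124 and 116 CPM (TMM-scaled counts) in WT and 124, 154 and 187 CPM in BM. β-catenin is the effector of canonical Wnt signalling. In the adult liver it holds hepatocytes around the central vein in a programme of glutamine synthesis and drug metabolism, whereas hepatocytes near the portal vein express genes of ureagenesis and gluconeogenesis. MYC is a transcription factor known for driving ribosome production, nucleotide synthesis and growth.

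Library totals were 4645204 to 5408053 counts in WT and 3254141 to 4060258 in BM for RNA, and 9942043 to 12451658 in WT and 11162699 to 14380713 in BM for RPFs. Levels are given as CPM, which are counts scaled to the library total and its TMM factor (trimmed mean of M values), in the order of mice 1, 2 and 3. In bulk tissue, fewer cells of a type and less RNA per cell cannot be told apart. Hepatocyte markers were abundant in every library, with *Alb*, which encodes albumin, at 20129 to 22154 TPM in BM RNA and 48454 to 58750 TPM in WT RNA. The 20 most abundant genes held 24.6% to 25.9% of the RNA counts in WT and 16.6% to 17.2% in BM. BM mouse 1 stood apart from BM mice 2 and 3 in many genes of fasting, ureagenesis and Wnt signalling, and values without it are given beside many of the lists and genes that it moves.

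The targeted genes were examined first. *Ctnnb1* RNA was 282, 259 and 272 CPM in the WT mice and 203, 182 and 176 CPM in the BM mice, so each BM mouse lay below each WT mouse (log2 change -0.53 ± 0.12 (SE, adjusted p = 0.0097), edgeR quasi-likelihood F test, p adjusted by Benjamini-Hochberg). In RPFs the *Ctnnb1* change was -0.38 ± 0.14 (SE, adjusted p = 0.075), and it became 0.00 when libraries were scaled to their totals without TMM. Scaled likewise, *Ctnnb1* RNA of BM mouse 1 lay within the WT range and that of BM mice 2 and 3 below it. BM mouse 1 had 965 of 4060258 RNA counts and WT mouse 3 had 1054 of 4645204. Leaving out 1 mouse gave *Ctnnb1* RPF changes of -0.34 to -0.42, with an adjusted p above 0.1 for every mouse except BM mouse 1. A gene count does not show the loss of exon 3. *Myc* RNA was 23.2, 29.9 and 45.9 CPM in the WT mice and 22.1, 50.6 and 55.3 CPM in the BM mice, with overlapping groups and a log2 change of 0.37 ± 0.35 (SE, adjusted p = 0.44). *Myc* RPFs were 5.25, 11.3 and 18.3 CPM in the WT mice and 57.9, 122 and 165 CPM in the BM mice, and all 3 BM mice were far above all WT mice (log2 change 3.32 ± 0.52 (SE, adjusted p = 0.0029)). The counts do not separate transgene from endogenous reads, and the difference between the RPF and RNA changes of *Myc* did not pass the test of their interaction (2.95 ± 0.68 (SE, adjusted p = 0.18)), but passed when the RNA and RPF libraries of each mouse were joined as a block (adjusted p = 3.4e-05).

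BM livers differed from WT livers in 45.7% of the genes tested in RNA and 46.8% of those tested in RPFs. In RNA, 2547 genes (22.9%) were higher and 2541 (22.8%) lower at an adjusted p under 0.1, and 2783 (24.5%) were higher and 2526 (22.3%) lower in RPFs. Before any test, all BM mice lay above all WT mice in 2832 genes (25.5%) in RNA and 2980 (26.3%) in RPFs, and below them in 2794 (25.1%) and 2930 (25.8%). A gene was counted as held in all 3 mice when it passed the adjusted p and each BM mouse lay beyond each WT mouse. Held genes numbered 2377 higher (21.4%) and 2403 lower (21.6%) in RNA, and 2557 higher (22.5%) and 2443 lower (21.5%) in RPFs. Of the genes tested in both library types, 1582 (15.2%) were held higher and 1651 (15.8%) held lower in both, and 23 (0.22%) were held in opposite directions. The held changes that also passed when each BM mouse was left out in turn were 1736 higher (15.6%) and 1776 lower (16.0%) in RNA and 1887 higher (16.6%) and 1649 lower (14.5%) in RPFs.

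The median size of held changes on the log2 scale was 0.85 for genes held higher and 0.95 for genes held lower in RNA, and 1.00 and 1.02 in RPFs. Over 8-fold changes were seen in 69 genes held higher and 113 held lower in RNA, and in 128 and 132 in RPFs. All changes are relative to the library. Scaling to library totals without TMM moved the median change of all genes from 0.03 to 0.43 in RNA and from 0.03 to 0.41 in RPFs, and the calls became 5292 higher and 1263 lower in RNA and 4913 higher and 1233 lower in RPFs. The balance of higher against lower calls thus depends on the scaling.

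**Figure D1:**
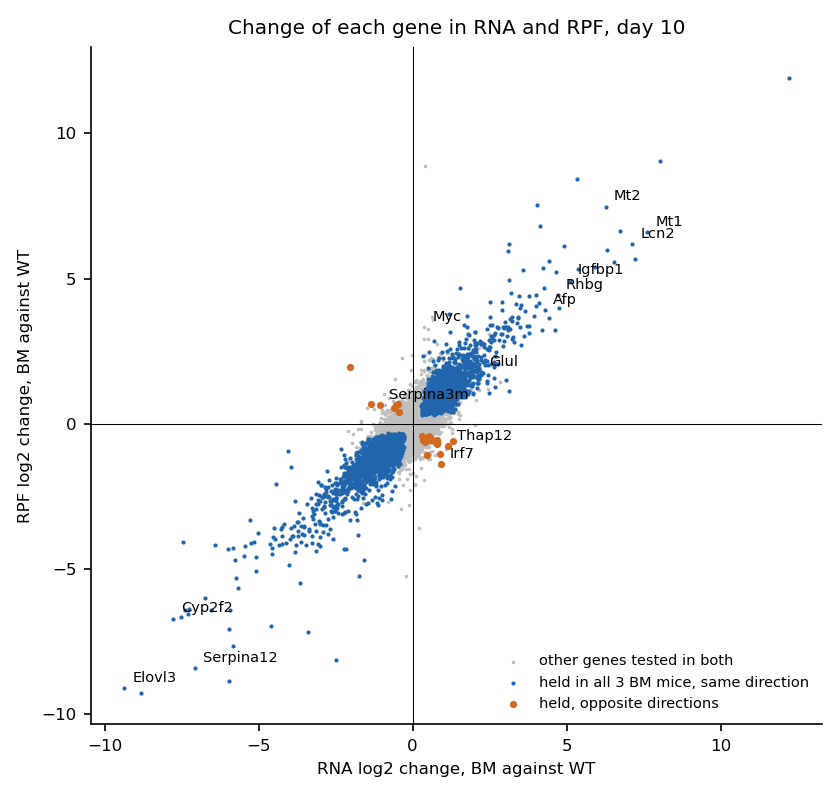
Log2 change of BM against WT in cytoplasmic RNA (x axis) and RPFs (y axis), 1 point per gene tested in both library types. Genes held in the same direction in both (blue) lie from lower left to upper right, and the 23 genes held in opposite directions (orange) lie in the other quadrants.

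Several targets of β-catenin were raised in BM, most of all in mouse 1. *Axin2*, which encodes a scaffold of the β-catenin destruction complex and is a classical Wnt target, had 3.46, 1.44 and 3.35 CPM in the WT mice and 31.1, 9.5 and 6.51 CPM in the BM mice in RNA and 2.4, 1.86 and 1.95 against 26.7, 10.6 and 6.23 CPM in RPFs. All BM mice were above all WT mice, and mouse 1 had several times the level of the other BM mice. The log2 changes of *Axin2* were 2.55 ± 0.63 (SE, adjusted p = 0.013) in RNA and 2.81 ± 0.55 (SE, adjusted p = 0.0068) in RPFs, and 1.57 and 2.01 without BM mouse 1. *Lgr5*, the R-spondin receptor, had 8.66, 6.18 and 8.25 CPM in WT and 53.4, 17.8 and 13.8 CPM in BM RNA. Its log2 changes were 1.90 ± 0.49 (SE, adjusted p = 0.016) in RNA and 1.77 ± 0.48 (SE, adjusted p = 0.023) in RPFs, and without BM mouse 1 they were 1.05 and 1.02. *Znrf3*, a ubiquitin ligase that removes Wnt receptors, rose by 1.85 in RNA and 2.08 in RPFs, and the transcription factor gene *Sp5* by 3.22 in RPFs (2.65 without BM mouse 1). *Tcf7* rose by 1.42 in RNA and had a change of 1.02 ± 0.55 (SE, adjusted p = 0.18) in RPFs, which were 0.91 and 0.23 without BM mouse 1.

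Of 14 listed Wnt target genes, 5 of 10 tested members rose and 0 fell in RNA, and 7 of 11 rose and 0 fell in RPFs, beside 22.9% higher and 22.8% lower among all genes in RNA and 24.5% and 22.3% in RPFs. The list's median log2 change was 1.38 in RNA and 1.66 in RPFs, beside 0.03 for all genes in each. By mouse, the median distance from the WT mean was 2.35, 0.70 and 0.22 in RNA and 2.62, 0.99 and 0.71 in RPFs for BM mice 1, 2 and 3. Without BM mouse 1 the median change of the list was 0.38 in RNA and 0.69 in RPFs. *Notum*, which encodes a secreted Wnt inhibitor, was 11.7, 9.69 and 14.7 CPM in the WT mice and 34.9, 14.5 and 10.0 CPM in the BM mice in RNA, so only BM mouse 1 lay above the WT range (log2 change 0.75 ± 0.42 (SE, adjusted p = 0.19)). Its RPFs were 33.8, 23.1 and 28.6 CPM in the WT mice and 71.9, 21.7 and 12.8 CPM in the BM mice, with mouse 1 above the WT range and mice 2 and 3 below it (0.32 ± 0.56 (SE, adjusted p = 0.68)). Without BM mouse 1 the RPF change was -0.73 (adjusted p = 0.017). *Ccnd1*, the cyclin D1 gene, had 52.6, 82.4 and 64.2 CPM in the WT mice and 88, 60.8 and 59.4 CPM in the BM mice in RNA, with overlapping groups and a change of 0.07 ± 0.21 (SE, adjusted p = 0.83).

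Genes of ammonia and glutamine handling were among the most raised. *Glul*, the glutamine synthetase of pericentral hepatocytes, had 848, 480.3 and 765 CPM in the WT mice and 4989.7, 2553 and 2089.6 CPM in the BM mice in RNA and 856, 515 and 863 against 3475, 2506 and 1637 CPM in RPFs (log2 changes 2.20 ± 0.35 (SE, adjusted p = 0.0018) in RNA and 1.77 ± 0.33 (SE, adjusted p = 0.0057) in RPFs). Every BM mouse exceeded every WT mouse, and BM mouse 1 was the highest. *Slc1a2*, a glutamate transporter, had 156, 114 and 197 CPM in the WT mice and 3909, 4376 and 4290.0 CPM in the BM mice in RNA, a change of 4.75 ± 0.24 (SE, adjusted p = 8.8e-06), with the 3 BM mice close together. *Rhbg*, an ammonium transporter, went from 4.76, 1.03 and 3.35 to 105, 66.7 and 65.1 CPM, and *Oat*, the ornithine aminotransferase, from 409, 258 and 436 to 5952, 4986 and 5922 CPM. The log2 changes in RNA and RPFs were 4.70 and 4.44 for *Rhbg* and 3.94 and 3.72 for *Oat*. In the ammonia and glutamine list, 6 of 11 tested members rose and 2 fell in RNA, and 8 of 11 rose and 2 fell in RPFs, beside 22.9% higher and 22.8% lower among all genes in RNA and 24.5% and 22.3% in RPFs.

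The wider zonation lists moved in part. Of 22 genes of the pericentral zone 3, 13 of 22 tested members rose and 2 fell in RNA, and 12 of 22 rose and 3 fell in RPFs, and 13 in RNA and 11 in RPFs were held higher, against 21.4% and 22.5% of all genes. The median change of the list was 1.32 in RNA and 0.99 in RPFs, and 0.87 and 0.37 without BM mouse 1. The members held higher included *Slc22a3*, an organic cation transporter (4.26 in RNA and 4.67 in RPFs), and *Cyp7a1*, the rate-limiting enzyme of bile acid synthesis (1.88 in RNA and 1.80 in RPFs). Of the periportal zone 1 genes, 5 of 21 tested members rose and 10 fell in RNA, and 5 of 22 rose and 9 fell in RPFs, beside 22.9% higher and 22.8% lower among all genes in RNA and 24.5% and 22.3% in RPFs. Only 3 in RNA and 2 in RPFs were held higher, and 1 in each also passed without each BM mouse, while 10 and 8 were held lower. The median distance from WT was -1.27, -0.41 and -0.24 in RNA and -1.26, -0.45 and -0.40 in RPFs in BM mice 1, 2 and 3, and the median change of -0.69 in RNA became -0.20 without mouse 1. *Cyp2f2*, a periportal cytochrome P450, had 1775, 1232 and 1710.0 CPM in the WT mice and 7.35, 6.41 and 7.6 CPM in the BM mice in RNA and 2507, 1980.0 and 2685 against 9.85, 30.3 and 28.9 CPM in RPFs. Its RNA fell 220.1-fold (-7.78 ± 0.24 (SE, adjusted p = 9.8e-07)) and no BM mouse came near the WT range. *Pigr*, the receptor that carries immunoglobulin into bile, fell by 3.25 in RNA and 2.89 in RPFs on the log2 scale. *Ctsc*, a lysosomal protease gene, fell by 1.26 and 0.80. *Igfbp2* (insulin-like growth factor binding protein 2) was 149, 177 and 179 CPM in the WT mice and 32.8, 61.3 and 63.8 CPM in the BM mice in RNA, a change of -1.68 ± 0.24 (SE, adjusted p = 0.00098). Its RPF change was -1.22 ± 0.41 (SE, adjusted p = 0.047), which missed the threshold without any 1 WT mouse (adjusted p = 0.1 to 0.13).

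**Figure D2:**
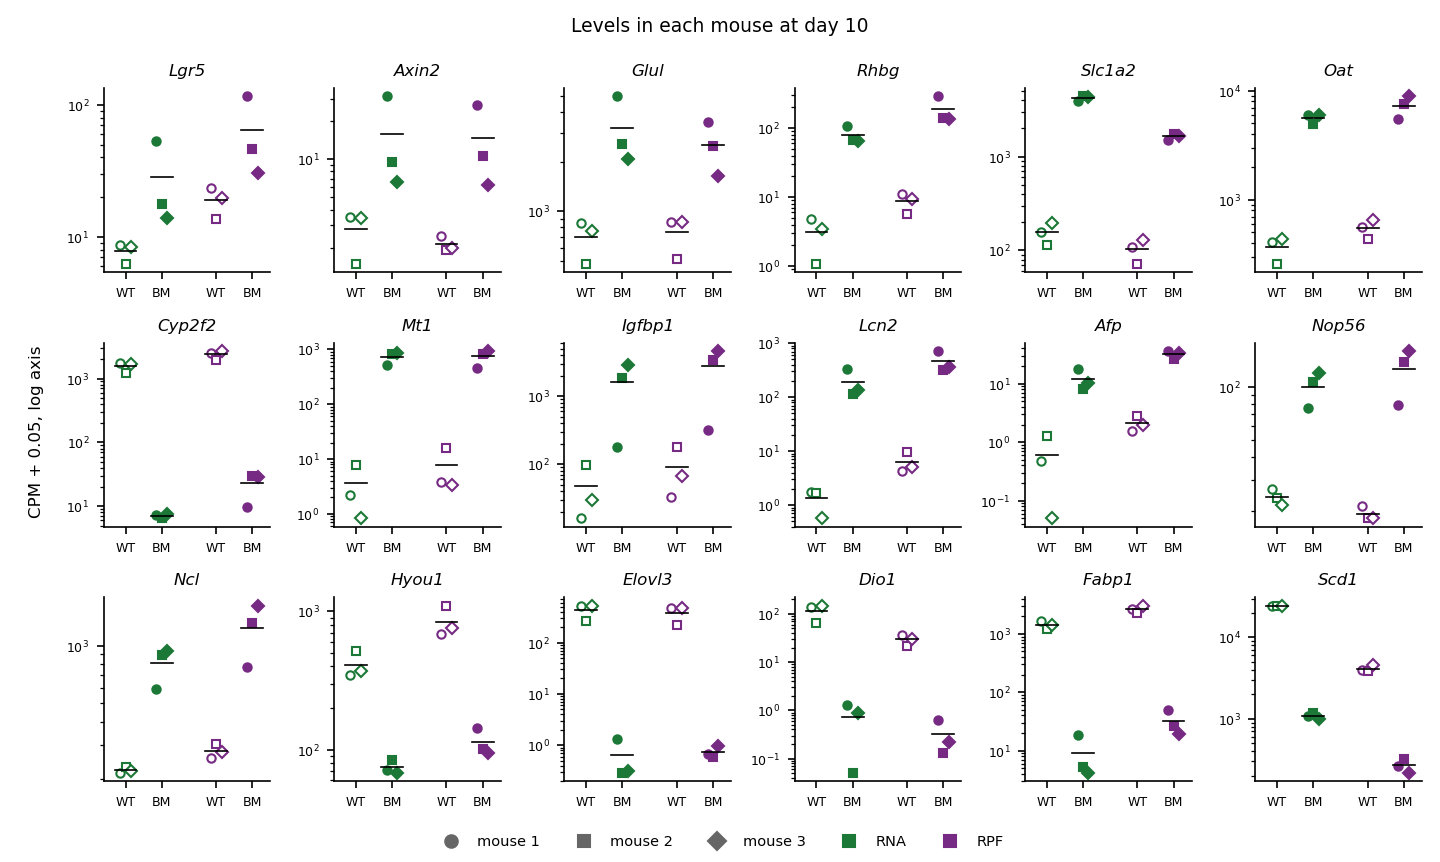
Levels of 18 genes in RNA (green) and RPFs (purple) in CPM with 0.05 added, on a log axis, with 1 point per mouse (open for WT, filled for BM, shape by mouse number) and a line at the mean of 3 mice. In *Axin2* and *Lgr5* BM mouse 1 lies above the other BM mice, whereas in *Slc1a2* and *Scd1* the 3 BM mice lie together and apart from WT.

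Among genes with more than 3 counts in a WT library, those with the largest mean increase over both library types, all held in the 3 mice, included *Mt1*, *Mt2*, *Lcn2* and *Atp6v0d2*. *Mt1*, which encodes the metal-binding protein metallothionein 1, had 2.16, 7.83 and 0.774 CPM in the WT mice and 519, 818 and 875 CPM in the BM mice in RNA and 3.74, 15.8 and 3.29 against 462, 837 and 930.3 CPM in RPFs. WT mouse 2 was the highest WT mouse, and the RNA change of 7.61 ± 0.57 (SE, adjusted p = 5.1e-05) became 8.86 without it, while the RPF change of 6.61 became 7.70. *Mt2* went from 1.3, 1.85 and 1.55 to 86.8, 126 and 158 CPM in RNA (6.27 ± 0.31 (SE, adjusted p = 8.1e-06)) and rose by 7.48 in RPFs, or 8.07 without WT mouse 2. *Lcn2*, the siderophore-binding lipocalin 2, had 1.73, 1.65 and 0.516 CPM in the WT mice and 326, 116 and 133 CPM in the BM mice in RNA, and its change of 7.13 ± 0.57 (SE, adjusted p = 6.1e-05) was 6.50 without BM mouse 1, the highest of the 3. *Atp6v0d2*, a subunit of the vacuolar proton pump, rose by 6.31 in RNA and 5.98 in RPFs, and without WT mouse 2 its RNA was at 3 and 1 counts in WT.

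The start regions of the metallothionein genes are shown because both metallothionein genes were among the most raised in both library types. They come from the RefSeq promoter table (GRCm38.p6, 250 bases before to 50 after the start) and were placed on GRCm39 by exact match, *Mt1* at chr8:94905714-94905743 and *Mt2* at chr8:94899011-94899040 on the plus strand. Capitals mark the letters TGCACNC or TGCGCNC, the core of the metal response element.
Mt1: agctcTGCACTCcgcccgaaaagTGCGCTC
Mt2: cagcatcgcctcTGCACCCggcccctcggg
Searched on both strands, these letters occurred 3 times in the *Mt1* promoter and 4 times in that of *Mt2*, and at least once in 25.6% of all 27025 promoters, 35.7% of genes tested in RNA, 40.6% of genes held higher in both library types and 31.6% of genes held lower. A match of letters is a description of the window only.

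*Sult1e1*, the oestrogen sulfotransferase, was at 1, 0 and 0 RNA counts in WT and 322, 583 and 576 CPM in BM. Taking 3 counts per WT library as the floor, it was at least 725-fold higher in RNA and at least 2245-fold higher in RPFs. *Igf2*, the fetal insulin-like growth factor, was likewise at no more than 3 counts in every WT library and at 29.6, 32.8 and 43.1 CPM in BM RNA, at least 51.7-fold higher in RNA and 79.5-fold in RPFs. Further bounds in RPFs were at least 48.3-fold for the clock repressor gene *Ciart* and 46.6-fold for *Dynlt2a1*.

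The largest decreases held in all 3 mice were those of genes with varied roles. *Elovl3*, a fatty acid elongase, had 515, 262 and 523 CPM in the WT mice and 1.26, 0.237 and 0.271 CPM in the BM mice in RNA. *Serpina12*, a secreted serpin, had 94, 30.9 and 79.7 CPM in the WT mice and 0.84, 0.475 and 0 CPM in the BM mice, and *Fabp1*, the liver fatty acid binding protein, 1696, 1232 and 1415 CPM in the WT mice and 18.3, 5.22 and 4.07 CPM in the BM mice. All BM mice were below all WT mice in these genes, and BM mouse 1 was the least reduced in RNA. The RNA changes were -9.36 ± 0.49 (SE, adjusted p = 8.8e-06) for *Elovl3*, -7.09 ± 0.66 (SE, adjusted p = 0.00013) for *Serpina12* and -7.26 ± 0.53 (SE, adjusted p = 4.6e-05) for *Fabp1*, and that of *Fabp1* was -8.26 without BM mouse 1. *Dio1*, which activates thyroid hormone, fell by 7.30 in RNA and 6.56 in RPFs. The manganese exporter gene *Slc30a10* fell too, with log2 changes of -6.54 in RNA and -6.42 in RPFs, as did the aquaporin gene *Aqp8*, with -6.75 in RNA and -5.98 in RPFs (RPF -7.96 without BM mouse 1). In *Elovl3*, *Serpina12*, *Dio1*, *Slc30a10* and *Aqp8*, BM mice 2 and 3 had at most 3 RNA counts each, so their fall without mouse 1 was deeper and has no fitted value here. In RPFs the BM mice had 10, 1 and 2 counts for *Dio1* and 16, 3 and 2 for *Slc30a10*, so mouse 1 was again the least reduced. *Hsd3b5*, a steroid dehydrogenase of male liver, was at 2, 2 and 3 RNA counts in BM against 279.7, 211 and 311 CPM in WT, at least 372-fold lower, and *Aspg* was at least 67.5-fold lower in RNA.

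The major urinary proteins, which carry pheromones in male mouse urine, fell as a family. Of all genes, 22.8% were lower in RNA and 22.3% in RPFs. All 22 *Mup* genes tested fell in RNA and all 15 in RPFs, with median log2 changes of -5.81 and -4.29, and together they took 6.96% to 13.2% of RNA counts in WT and 0.321% to 0.464% in BM. The *Mup* genes are nearly identical, so values of single members such as *Mup17* and *Mup21* are uncertain. Of 14 genes with higher expression in male liver, 12 fell and 0 rose in each library type, with a median of -3.24 in RNA. *Cyp4a12a*, a male-specific cytochrome P450, was 247, 325 and 305 CPM in the WT mice and 15.8, 23.3 and 22.5 CPM in the BM mice in RNA, and *Slco1a1*, an organic anion transporter, 1256, 1095 and 1389 CPM in the WT mice and 18.1, 23.7 and 27.1 CPM in the BM mice. Each BM mouse was far below each WT mouse in both (log2 changes -3.84 ± 0.20 (SE, adjusted p = 8.8e-06) and -5.76 ± 0.22 (SE, adjusted p = 2.2e-06)).

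In the growth hormone and insulin-like growth factor axis, 3 of 18 tested members rose and 7 fell in RNA, and 3 of 19 rose and 9 fell in RPFs, beside 22.9% higher and 22.8% lower among all genes in RNA and 24.5% and 22.3% in RPFs. *Ghr*, the growth hormone receptor gene, had 1022, 967 and 1155 CPM in the WT mice and 492, 304 and 311 CPM in the BM mice in RNA (-1.50 ± 0.21 (SE, adjusted p = 0.00095)). *Cish*, a feedback inhibitor induced by the receptor, went from 27.3, 26 and 23.5 to 2.52, 2.37 and 7.33 CPM (-2.69 ± 0.35 (SE, adjusted p = 0.00069), and -3.37 without BM mouse 3), and its RPF change was -3.63, or -4.23 without that mouse. *Igfals*, which encodes the subunit that stabilises circulating insulin-like growth factors, fell by 2.37 in RNA and 2.42 in RPFs (-3.08 without BM mouse 1).

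Genes that build ribosomes rose together. Of 56 listed ribosome biogenesis genes, 48 of 56 tested members rose and 0 fell in RNA, and 54 of 56 rose and 0 fell in RPFs, beside 22.9% and 24.5% higher among all genes, and 48 and 52 were held in all 3 mice. The median log2 change was 1.22 in RNA and 1.40 in RPFs. *Polr1a*, the large subunit of RNA polymerase I, had 32.5, 34 and 25.8 CPM in the WT mice and 102, 107 and 107 CPM in the BM mice in RNA and 29.5, 27 and 27.1 against 111, 158 and 162 CPM in RPFs. The 3 BM mice were close together in RNA and all above WT (1.77 ± 0.14 (SE, adjusted p = 6.6e-05) in RNA and 2.37 ± 0.19 (SE, adjusted p = 0.0002) in RPFs). *Noc2l*, a nucleolar factor, rose by 1.64 in RNA and 1.08 in RPFs, *Nhp2*, a component of RNA-modifying particles, by 1.87 in RNA and 2.15 in RPFs, *Nop56*, a box C/D particle protein, by 2.07 in RNA and 2.71 in RPFs, and the nucleolar gene *Mybbp1a* by 1.81 in RNA and 1.79 in RPFs.

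The start regions of ribosome biogenesis genes are shown because MYC with its partner MAX binds the E-box CACGTG. From the same RefSeq table, placed on GRCm39 at chr11:72332173-72332202, chr17:71923215-71923244, chr6:125108774-125108803 and chr11:3913965-3913994 on the plus strand, they are the 4 held list members with the smallest adjusted p among those that hold the E-box, in capitals.
Mybbp1a: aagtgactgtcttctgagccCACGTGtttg
Wdr43: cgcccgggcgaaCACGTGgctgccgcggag
Nop2: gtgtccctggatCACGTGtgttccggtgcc
Pes1: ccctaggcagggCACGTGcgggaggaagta
The E-box, which reads alike on both strands, was in the promoter of 13 of the 50 list members with an entry (26.0%), in 13.4% of genes held higher in both library types, 7.94% of genes held lower, 10.2% of genes tested in RNA and 7.24% of all promoters. In the clock list, the other list searched, 5 of 18 promoters held it (27.8%). The share is a count of letters and does not show binding.

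Cytosolic ribosomal proteins rose in RNA in all BM mice but less evenly in RPFs. Of 85 ribosomal protein genes, 81 of 85 tested members rose and 0 fell in RNA, and 52 of 81 rose and 0 fell in RPFs, beside 22.9% and 24.5% higher among all genes. The median log2 change was 1.06 in RNA and 0.74 in RPFs. In RPFs the median distance from WT was 1.16, 0.28 and 0.51 in BM mice 1, 2 and 3, against 0.99, 1.07 and 1.14 in RNA, and without BM mouse 1 the RPF median was 0.40. *Rpl28* had 94.8, 96.9 and 89 CPM in the WT mice and 238, 251 and 256 CPM in the BM mice in RNA (1.41 ± 0.12 (SE, adjusted p = 7.8e-05)). *Rpl28* RPFs were 147, 142 and 130.1 CPM in the WT mice and 310.3, 123 and 150.0 CPM in the BM mice, so only mouse 1 was clearly above WT and the change was 0.48 ± 0.33 (SE, adjusted p = 0.28). *Rps28* was held in both types (1.73 in RNA and 1.04 in RPFs). Ribosomal protein genes have many near-identical copies, and their counts are uncertain to that extent.

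Translation factors and the CCT chaperonin, which folds actin, tubulin and other proteins, rose to a smaller degree. Of the translation factor genes, 42 of 68 tested members rose and 3 fell in RNA, and 36 of 65 rose and 3 fell in RPFs, beside 22.9% and 24.5% higher among all genes, with medians of 0.50 and 0.53. *Eif4a1*, the RNA helicase of cap-dependent initiation, rose by 1.15 in RNA and 1.25 in RPFs, and *Eef1b2*, the exchange factor of elongation, by 1.44 in RNA and 0.87 in RPFs. All 8 CCT subunits rose in RNA and 7 in RPFs, with *Cct2* at 0.87 in RNA and 0.67 in RPFs. Of genes for polyamine and nucleotide synthesis, 12 of 29 tested members rose and 2 fell in RNA, and 12 of 29 rose and 1 fell in RPFs, against the same shares of all genes. These included *Srm*, the spermidine synthase gene (1.49 in RNA and 1.06 in RPFs), and *Impdh2* of guanine nucleotide synthesis (0.77 in RNA and 0.58 in RPFs).

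**Figure D3:**
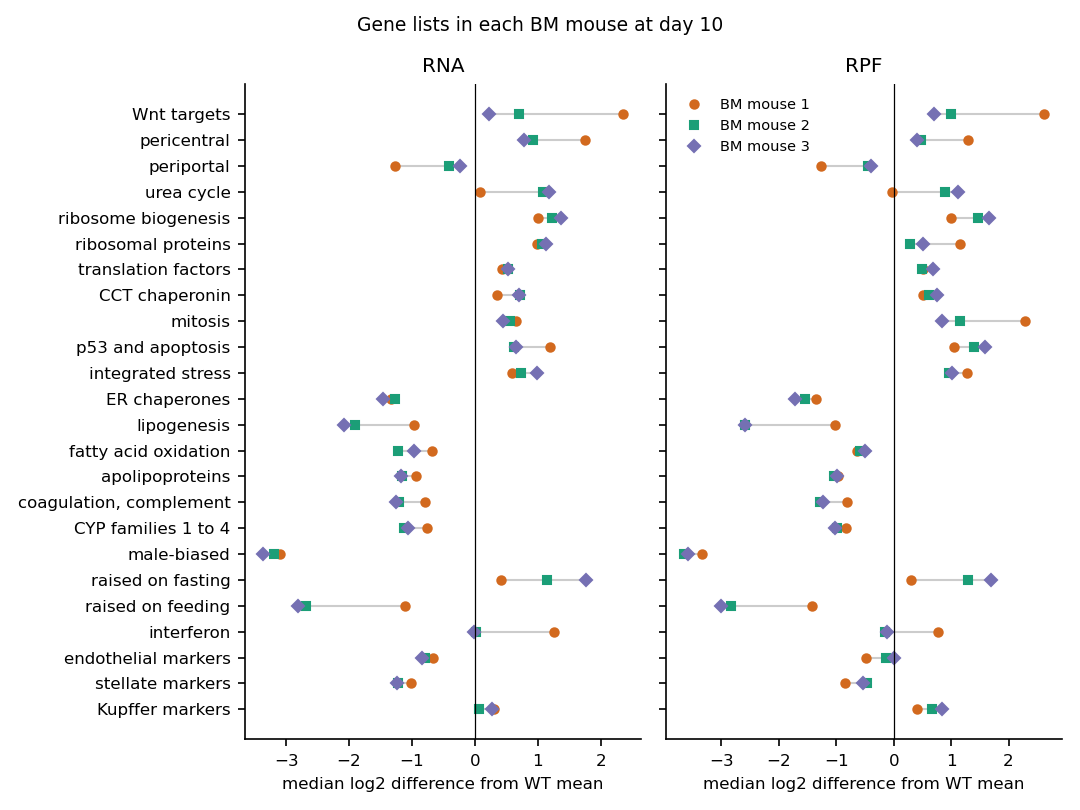
Median distance of each BM mouse from the WT mean, in log2 CPM, for 24 gene lists, with RNA on the left, RPFs on the right and 1 point per BM mouse. Ribosome biogenesis genes lie above WT and ER chaperones and male-biased genes below it in all 3 mice, whereas mouse 1 lies apart in the lists of Wnt targets, fasting and the urea cycle.

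Of all genes, 22.9% were higher in RNA and 24.5% in RPFs. Genes of mitosis and of the p53 response had larger shares in both, and DNA replication genes smaller ones. Of the mitosis genes, 14 of 43 tested members rose and 0 fell in RNA, and 32 of 50 rose and 0 fell in RPFs. *Mki67*, the proliferation marker Ki-67, had 7.58, 17.3 and 4.9 CPM in the WT mice and 52.5, 29.2 and 24.7 CPM in the BM mice in RNA and 2.94, 5.98 and 3.9 against 17.3, 14.9 and 10.2 CPM in RPFs (1.82 ± 0.43 (SE, adjusted p = 0.012) in RNA and 1.73 ± 0.32 (SE, adjusted p = 0.0052) in RPFs), and its RNA change was 2.45 without WT mouse 2. *Ccnb1*, the mitotic cyclin B1 gene, rose by 0.70 in RNA and 2.86 in RPFs (RPF 3.65 without WT mouse 2), and *Smc4*, a condensin subunit, by 0.90 in RNA and 1.20 in RPFs. In the mitosis list the RPF median was 1.54, and 0.90 without BM mouse 1. Of 42 DNA replication genes, 4 of 34 tested members rose and 3 fell in RNA, and 5 of 38 rose and 2 fell in RPFs. *Cdkn1a*, which encodes the cell cycle inhibitor p21, had 17.8, 11.5 and 13.7 CPM in the WT mice and 60.7, 69.3 and 71.9 CPM in the BM mice in RNA (2.23 ± 0.18 (SE, adjusted p = 6.7e-05)), without overlap. It belongs to the p53 and apoptosis list, in which 12 of 19 tested members rose and 0 fell in RNA, and 14 of 19 rose and 1 fell in RPFs. *Zmat3*, a p53 target, rose by 1.72 in RNA and 2.10 in RPFs and *Trp53inp1* by 3.0 in RNA and 3.35 in RPFs.

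Most genes for ER chaperones, coagulation and complement factors and apolipoproteins fell, against 22.8% of all genes in RNA and 22.3% in RPFs. Of 22 ER chaperone genes, 20 fell and 0 rose in each library type, with medians of -1.26 in RNA and -1.54 in RPFs. *Hyou1*, an ER chaperone of the heat shock family, had 346, 514 and 370.4 CPM in the WT mice and 71.4, 84.3 and 67.6 CPM in the BM mice in RNA (-2.46 ± 0.19 (SE, adjusted p = 5.4e-05)), and *Calr*, the calcium-binding chaperone calreticulin, fell by 1.45 in RNA and 1.50 in RPFs. Among coagulation and complement genes, 2 of 37 tested members rose and 32 fell in RNA, and 2 of 37 rose and 30 fell in RPFs. *C9*, a component of the membrane attack complex, had 879.8, 1208 and 1164 CPM in the WT mice and 76.5, 73.1 and 63.8 CPM in the BM mice in RNA. *C8b*, another component, had 779.6, 825 and 835 CPM in the WT mice and 95, 90.9 and 77.3 CPM in the BM mice. Groups were far apart in both (-3.93 ± 0.18 (SE, adjusted p = 6.5e-06) and -3.21 ± 0.15 (SE, adjusted p = 5.6e-06)). Among apolipoproteins and their partners, 0 of 17 tested members rose and 14 fell in RNA, and 0 of 17 rose and 15 fell in RPFs, with *Apoa1*, the main protein of high-density lipoprotein, at -1.54 ± 0.16 (SE, adjusted p = 0.00025) in RNA and -1.54 ± 0.20 (SE, adjusted p = 0.0014) in RPFs.

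Acute phase genes had shares of higher members close to those of all genes (22.9% in RNA and 24.5% in RPFs) and larger shares of lower ones, with 5 higher and 9 lower of 22 in RNA and 5 higher and 8 lower of 24 in RPFs. *Lcn2* and *Orm3* rose, and *Crp*, the C-reactive protein gene (-1.81 in RNA and -1.46 in RPFs), and *Apcs*, the serum amyloid P gene (-2.65 in RNA and -2.31 in RPFs), fell. The *Lcn2* RNA change was 6.50 without BM mouse 1 against 7.13 with it. *Orm3* RPFs were 1.07, 0.206 and 0.487 CPM in the WT mice and 20.6, 52.2 and 42.9 CPM in the BM mice, and their change of 5.96 ± 0.55 (SE, adjusted p = 0.00039) was 6.79 without WT mouse 1. The *Orm* genes are close paralogs.

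Most genes of lipid synthesis and fatty acid oxidation fell with TMM scaling. Of all genes, 22.9% were higher and 22.8% lower in RNA and 24.5% and 22.3% in RPFs. Of the lipogenesis genes, 1 of 17 tested members rose and 14 fell in RNA, and 1 of 18 rose and 16 fell in RPFs. The RPF median was -1.71, or -2.57 without BM mouse 1 and -1.30 without TMM. *Scd1*, the main fatty acid desaturase of liver, had 24459, 24136 and 24479 CPM in the WT mice and 1095, 1179 and 1001 CPM in the BM mice in RNA and 4012, 3834 and 4569 against 261, 325 and 215 CPM in RPFs, without overlap and with the BM mice close together (-4.48 ± 0.20 (SE, adjusted p = 5.4e-06) in RNA and -3.95 ± 0.24 (SE, adjusted p = 0.0001) in RPFs). *Me1*, which supplies reducing power for lipogenesis, fell by 3.09 and 4.15, and *Elovl5* by 2.25 and 2.58. Of the genes of fatty acid oxidation, 2 of 29 tested members rose and 20 fell in RNA, and 3 of 29 rose and 19 fell in RPFs. Their median change was -0.98 in RNA and -0.53 in RPFs, and only -0.57 and -0.15 without TMM. Among those that rose, *Cpt1a*, which admits fatty acids to mitochondria, had log2 changes of 0.94 in RNA and 1.01 in RPFs. Of the genes of bile acid synthesis and transport, 2 of 20 tested members rose and 12 fell in RNA, and 3 of 20 rose and 10 fell in RPFs. Here the medians were -0.75 and -0.57, and -0.34 and -0.18 without TMM. *Slc10a1*, the bile salt importer, fell by 1.84 and 1.80. Among cytochromes P450 of families 1 to 4, 6 of 56 tested members rose and 37 fell in RNA, and 4 of 53 rose and 31 fell in RPFs.

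Fed and fasted genes moved in opposite directions, and here the BM mice were uneven. The counts stand beside 22.9% higher and 22.8% lower among all genes in RNA and 24.5% and 22.3% in RPFs. In the list of fed-state genes, 0 of 10 tested members rose and 8 fell in RNA, and 0 of 11 rose and 10 fell in RPFs. *Pklr*, the liver pyruvate kinase gene, had 301, 133 and 208 CPM in the WT mice and 28.8, 23.7 and 19.8 CPM in the BM mice in RNA (-3.14 ± 0.30 (SE, adjusted p = 0.00014)). Of fasting-induced genes, 8 of 15 tested members rose and 2 fell in RNA, and 8 of 15 rose and 2 fell in RPFs, and 4 and 5 were held higher, against 21.4% and 22.5% of all genes. The median distance of the fasted list from WT was 0.41, 1.14 and 1.77 in RNA in BM mice 1, 2 and 3, and that of the fed list was -1.11, -2.69 and -2.81. Without BM mouse 1 the median change in RNA went from 1.14 to 1.62 in the fasted list and from -2.04 to -2.81 in the fed list. *Igfbp1*, an insulin-repressed secreted protein, had 15.8, 97.5 and 29.7 CPM in the WT mice and 180.5, 1829 and 2911 CPM in the BM mice in RNA, so mouse 1 exceeded WT mouse 2 by less than 2-fold while mice 2 and 3 were far higher. Its RNA change was 5.1 ± 1.03 (SE, adjusted p = 0.0053), with 6.15 without WT mouse 2 and 4.39 without BM mouse 3, and its RPF change was 4.93, or 5.80 without WT mouse 2. *Ppargc1a*, the coactivator of gluconeogenesis and mitochondrial biogenesis, had 20.1, 23.9 and 16 CPM in the WT mice and 45.4, 234 and 282 CPM in the BM mice (3.21 ± 0.58 (SE, adjusted p = 0.0031)).

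The urea cycle showed the same unevenness. Of its 8 listed genes, 5 of 8 tested members rose and 1 fell in RNA, and 4 of 8 rose and 1 fell in RPFs, beside 22.9% and 24.5% higher among all genes, and 2 in RNA and 1 in RPFs were held higher and still passed without each BM mouse. The median distance from WT was 0.08, 1.08 and 1.17 in RNA in BM mice 1, 2 and 3. *Slc25a15*, the mitochondrial ornithine carrier, had 396, 331 and 345 CPM in the WT mice and 482, 1025 and 1243 CPM in the BM mice in RNA (1.36 ± 0.30 (SE, adjusted p = 0.0086)). *Asl*, the argininosuccinate lyase gene, had 349.9, 239 and 321 CPM in the WT mice and 319, 1238 and 1275 CPM in the BM mice, so BM mouse 1 lay within the WT range and the other mice above it. *Otc*, the ornithine transcarbamylase gene, fell in all 3 mice, from 702, 655 and 686 to 284, 227 and 205 CPM (-1.51 ± 0.16 (SE, adjusted p = 0.00021)).

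Among stress and nutrient sensors, *Ddit4*, an inhibitor of mTORC1 induced by stress and glucocorticoids, had 6.06, 4.12 and 4.13 CPM in the WT mice and 26.1, 93.6 and 114 CPM in the BM mice in RNA and 10.3, 7.63 and 6.21 against 60.1, 215 and 246 CPM in RPFs (4.01 ± 0.54 (SE, adjusted p = 0.00082) in RNA and 4.42 ± 0.54 (SE, adjusted p = 0.0012) in RPFs). All BM mice were above WT, and mouse 1 was the least raised. *Eif4ebp1*, the translation repressor 4E-BP1, rose by 1.00 in RNA and 0.81 in RPFs. *Mtor* itself had 63.6, 71.5 and 77.9 CPM in the WT mice and 91.2, 80.3 and 90.6 CPM in the BM mice in RNA (change 0.30 ± 0.13 (SE, adjusted p = 0.11)), and its RPF change was 0.05 ± 0.18 (SE, adjusted p = 0.84). *Deptor*, another mTOR inhibitor, fell by 0.65 in RNA, while its RPF change was -0.22 ± 0.21 (SE, adjusted p = 0.44), which turned to 0.14 without TMM scaling. Of 20 genes of the integrated stress response, 8 of 14 tested members rose and 1 fell in RNA, and 11 of 16 rose and 2 fell in RPFs, beside 22.9% and 24.5% higher among all genes. *Per1*, a clock gene also induced by glucocorticoids, rose by 3.59 in RNA and 5.29 in RPFs in all 3 mice. Of 22 clock genes, 6 of 18 tested members rose and 3 fell in RNA, and 6 of 21 rose and 2 fell in RPFs, beside 22.9% and 24.5% higher among all genes.

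How often RNA and RPF changes parted depended on the fit. The interaction of group and library type was called for 27 of the 10431 genes (0.259%), 12 with the higher change in RPFs and 15 with the lower. Joining the libraries of each mouse as a block raised this to 268 and 272, leaving out BM mouse 1 to 1206 and 1130, and leaving out any other mouse gave 3 to 8 in each direction. *Hsd17b6*, a steroid dehydrogenase, had 109, 107 and 92.6 CPM in the WT mice and 9.03, 4.99 and 4.07 CPM in the BM mice in RNA but 183, 169 and 186 CPM in the WT mice and 92.7, 95 and 92.6 CPM in the BM mice in RPFs, so that RNA fell 16.6-fold and RPFs 1.92-fold (log2 difference of the changes 3.12 ± 0.29 (SE, adjusted p = 0.0003)). Of the 23 genes held in opposite directions, 16 were higher in RNA and lower in RPFs and 7 the reverse, and the interaction passed for 7 of the 23, or for all 23 when the libraries of each mouse were joined as a block. *Irf7*, an interferon regulatory factor, had 29.2, 21.8 and 19.9 CPM in the WT mice and 59, 39.2 and 35.3 CPM in the BM mice in RNA and 9.07, 10.6 and 8.16 CPM in the WT mice and 4.98, 2.58 and 2.91 CPM in the BM mice in RPFs (-2.30 ± 0.38 (SE, adjusted p = 0.031)). *Eif1*, an initiation factor that selects start codons, had 51.7, 67.4 and 74.3 against 85.9, 119 and 133 CPM in RNA and 441, 448 and 472 against 281, 293 and 344 CPM in RPFs (-1.37 ± 0.26 (SE, adjusted p = 0.067)). In both genes the groups were apart in each library type, in opposite directions. *Thap12* (-1.92 ± 0.25 (SE, adjusted p = 0.0056)) moved the same way. *Irf7* and *Thap12* were named for their place in this comparison after their values had been seen.

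Some changes rested on a single mouse and are kept apart from those above. A gene was placed here, with no test, when 1 BM mouse was at least 1 on the log2 scale from the WT mean and outside the WT range, and no other BM mouse was outside that range on the same side. BM mouse 1 had 70 such genes up (0.629%) and 33 down (0.297%) in RNA, and 129 up (1.14%) and 44 down (0.388%) in RPFs. BM mouse 2 had 6 up (0.0539%) and 23 down (0.207%) in RNA and 6 up (0.0529%) and 11 down (0.097%) in RPFs. BM mouse 3 had 11 up (0.0989%) and 23 down (0.207%) in RNA and 11 up (0.097%) and 33 down (0.291%) in RPFs. By the same rule, mouse 3 of the M group of day 10, which carries the MYC transgene alone, had 70 genes up in RNA and 120 in RPFs. The rule placed 33 genes on BM mouse 1 in both library types, 23 up and 10 down, against 1 on mouse 2 (*Apobec3*) and 2 on mouse 3 (*Fst* and *Socs3*, all up).

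*Sds*, the serine dehydratase gene of gluconeogenesis, was the most reduced of these, with 50.2, 64.5 and 34.1 CPM in the WT mice and 1.05, 35.9 and 57.5 CPM in the BM mice in RNA and 185, 244 and 139 against 3.48, 206 and 400.0 CPM in RPFs. BM mouse 1 was far below every other mouse, while mouse 2 and mouse 3 lay within or above the WT range. *G6pc1*, the glucose-6-phosphatase gene, had 292, 184 and 218 CPM in the WT mice and 65.8, 492 and 929 CPM in the BM mice in RNA, so mouse 1 lay below WT and mice 2 and 3 above it. *Socs2*, a growth hormone-induced inhibitor, *Nfil3*, a circadian repressor, and *Smad9* were also down in mouse 1 only. Haemoglobin genes (*Hbb-bt*, *Hba-a1*, *Hba-a2*), which mark blood cells, were low in mouse 1 only, and the summed level of 5 tested erythroid markers in RNA was 227 CPM in that mouse against 661 and 908 CPM in BM mice 2 and 3 and 561 to 885 CPM in WT. Genes up only in mouse 1 included the Wnt inhibitor gene *Nkd1* at 5.2, 3.09 and 2.06 CPM in the WT mice and 18.7, 4.51 and 2.44 CPM in the BM mice in RNA, and *Trib2*, *Cdca3*, *Pdzrn3* and the serum amyloid gene *Saa2*.

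**Figure D4:**
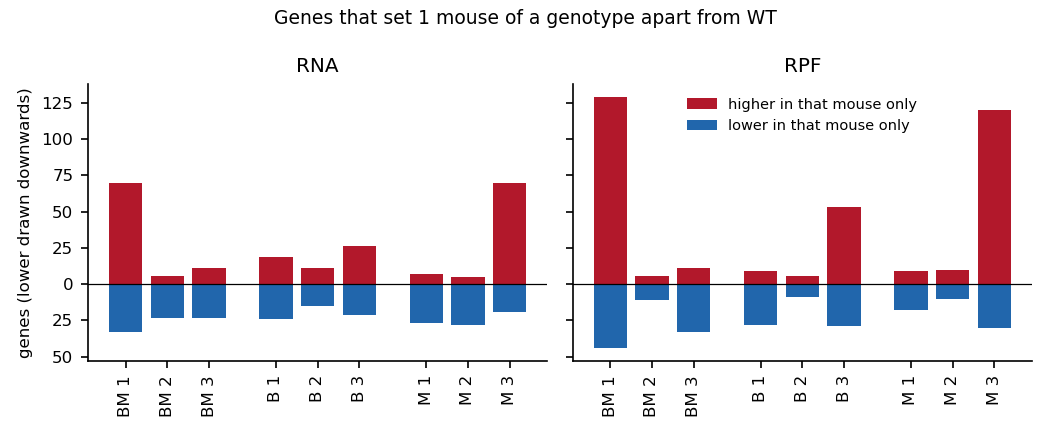
Number of genes in which only 1 mouse of a group lay apart from WT (bars, higher upwards and lower downwards), by mouse, in RNA and RPFs. Groups are BM and, for scale, B (β-catenin mutation alone) and M (MYC transgene alone) of day 10. BM mouse 1 has the most among the BM mice, with 70 up in RNA and 129 in RPFs, and M mouse 3 has 70 and 120.

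In the reverse pattern, BM mice 2 and 3 were both at least 1 from the WT mean and outside the WT range while mouse 1 was not outside it on that side. This was the case for 46 genes up (0.413%) and 118 down (1.06%) in RNA and 124 up (1.09%) and 216 down (1.90%) in RPFs, with 24 up and 29 down in both types. For mouse 2 as the odd mouse there were 8 up (0.0719%) and 3 down (0.027%) in RNA and 4 up and 4 down (0.0353% each) in RPFs. For mouse 3 there were 8 up (0.0719%) and 0 down in RNA and 14 up (0.123%) and 4 down (0.0353%) in RPFs. *Irs2*, an insulin receptor substrate induced by fasting, had 6.71, 18.8 and 10.6 CPM in the WT mice and 16.2, 90.2 and 141 CPM in the BM mice in RNA, and *Tat*, the tyrosine aminotransferase gene, 994, 809 and 584 CPM in the WT mice and 633, 4226 and 5699.7 CPM in the BM mice. *Pck1*, the rate-limiting gluconeogenic enzyme, had 603, 655 and 632 CPM in the WT mice and 349, 1769 and 2148 CPM in the BM mice. In all of these BM mouse 1 was within or below the WT range and mice 2 and 3 were 2 or more times the WT levels. *Inhbe*, which encodes the hepatokine inhibin βE and was picked after its values were seen, had 34.4, 8.04 and 17 CPM in the WT mice and 13.2, 0.475 and 0 CPM in the BM mice, so mouse 1 was within the WT range and the others close to 0.

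**Figure D5:**
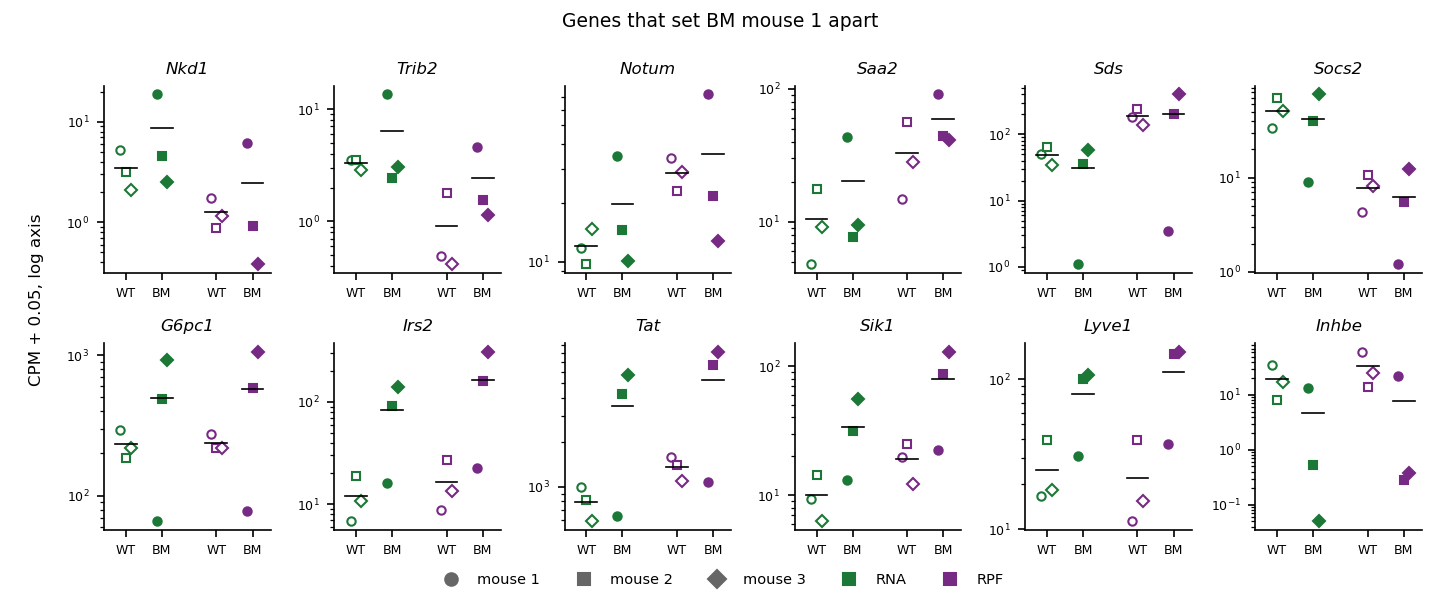
Levels of 12 genes that set BM mouse 1 apart, in RNA (green) and RPFs (purple) in CPM with 0.05 added, on a log axis, with 1 point per mouse (open for WT, filled for BM, circles for mouse 1) and a line at the mean of 3 mice. In *Sds* BM mouse 1 lies far below every other mouse, and in *Irs2* and *Tat* BM mice 2 and 3 lie above WT while mouse 1 does not.

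How many genes passed depended on the mice included. Among genes held higher, BM mouse 1 was the BM mouse nearest to WT for 55.9% in RNA and 63.9% in RPFs, and among genes held lower for 66.7% and 66.8%. Without it, 3182 genes were higher and 3334 lower in RNA and 3830 and 3781 in RPFs, so more genes passed with 2 BM mice than with 3. Without mouse 2 the numbers were 1989 and 1936 in RNA and 2071 and 1766 in RPFs, and without mouse 3 they were 2099 and 2032 in RNA and 2217 and 1941 in RPFs. Leaving out WT mouse 1, 2 or 3 left 1869, 2074 and 1830 genes higher in RPFs. Calls lost without BM mouse 1 numbered 110 higher and 56 lower in RNA and 52 and 8 in RPFs. Far more were lost without another BM mouse. Without mouse 2 they numbered 632 and 673 in RNA and 773 and 811 in RPFs. Without mouse 3 they numbered 565 and 605 in RNA and 679 and 659 in RPFs.

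Markers of other liver cells were read beside all genes, of which 22.9% were higher and 22.8% lower in RNA and 24.5% and 22.3% in RPFs. Of stellate cell markers, 1 of 10 tested members rose and 8 fell in RNA, and 1 of 11 rose and 7 fell in RPFs, and their summed RNA level was 641 to 776 CPM in WT and 319 to 338 CPM in BM. Of endothelial markers, 1 of 9 tested members rose and 8 fell in RNA, and 1 of 10 rose and 4 fell in RPFs, with sums of 533 to 568 CPM and 331 to 390.1 CPM in RNA. Of Kupffer cell markers, 4 of 11 tested members rose and 1 fell in RNA, and 5 of 11 rose and 0 fell in RPFs, with sums of 345 to 419.6 CPM and 421 to 492 CPM. Of hepatocyte markers themselves, 1 of 8 tested members rose and 6 fell in RNA, and 1 of 8 rose and 6 fell in RPFs. Their summed RNA level was 137299 to 140589 CPM in WT and 56619.8 to 58237 CPM in BM. No lymphocyte, pancreas or adipose marker passed the filter in RNA. What part a shift in cell types has in the changes above was not tested.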

How the data were processed

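Cytoplasmic RNA and RPFs of the same livers were sequenced by the authors. RPF reads were trimmed by the authors with Cutadapt, and reads of rRNA and tRNA were removed with BBmap. The other reads were aligned with BBmap to the most abundant transcript of each gene. The authors then removed duplicates by unique molecular identifiers and deposited raw counts over coding sequences, leaving out codons at both ends. For RNA they aligned reads with Bowtie2 (2.3.5.1) to a filtered GENCODE transcriptome (GRCm39) and deposited expected counts per isoform from RSEM (1.3.3). The deposited TPM values were used only for *Alb*, and FPKM and isoform percent, which the authors also gave, were not used. Expected counts were summed per gene and rounded, and at least 99.92% of the nonzero values were whole already. An RPF transcript absent from a library was taken as 0. Reads shared by near-identical genes were resolved by these alignments, so values of paralogs are uncertain. Duplicates had been removed, and counting error is that of molecules in the library.

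Levels were tested in R (4.3.3) with edgeR's quasi-likelihood F test (4.0.16) on the 3 WT and 3 BM mice of each library type, with TMM factors and filterByExpr (minimum count 10, minimum total 15). P-values were adjusted (Benjamini-Hochberg) across the genes tested in each fit, with a threshold of 0.1. Standard errors were taken from the log2 change and its F statistic. CPM are TMM-scaled, and distances of single mice use log2 CPM with a prior count of 2. RPF and RNA changes were compared by the interaction of group and library type. Where all libraries of the lower group had at most 3 counts, a bound from 3 counts per library is given in place of the fitted fold. The mice were separate animals, and day 4 and day 10 animals were induced at different times and harvested together. On simulated counts with a 2-fold change the test recovered 67.3% of changed genes in RNA and 39.6% in RPFs, and with a 4-fold change 95.9% and 96.8%. False calls were 10.6% of calls in RNA and 10.3% in RPFs. At each fold only 98 of 10779 genes were changed in RNA, and 96 and 95 of 11065 in RPFs. That is a far smaller share than was called here, so these rates do not measure recovery in this comparison.

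The comparison, the 46 gene lists and the markers were chosen with earlier results of these data known. Named genes were those the paper names, the 10 with the largest held change in both types and the 5 with the largest bound in each direction, up to 5 held members a list with the smallest adjusted p, members whose place is discussed, and the 5 farthest from WT among genes that rest on a mouse. Some genes that meet this rule are not reported here. Alternatives were DESeq2 (1.42.0) and its size factors, limma voom (3.58.1) with sample weights, other filters and thresholds, all 24 mice in a single fit, a replicate block and leaving out each mouse. Scaling without TMM and a robust fit were added after the data had been seen. Promoters came from RefSeq tables and were matched by symbol (8723 of 11122 tested symbols).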

Additional observations from a re-analysis of the deposited data

How the results depend on the processing

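The number of genes higher and lower in BM, and held in all 3 mice, stayed within 1.5 times under DESeq2, its size factors, other filters, a threshold of 0.05, all 24 mice in a single fit and the robust fit chosen after seeing the data. Scaling without TMM, also chosen then, gave 5292 higher and 1263 lower in RNA (held 4878 and 1159) and 4913 and 1233 in RPFs (held 4684 and 1158). With voom weights 3909 genes were lower in RPFs. Leaving out 1 mouse gave 1830 to 3830 genes higher in RPFs, 1762 to 3712 held lower in RPFs, and 3 to 1206 and 3 to 1130 for the interaction. Genes resting on mouse 1 and on mice 2 and 3 numbered 380 and 330 in RNA and 572 and 284 in RPFs at a distance of 0.58, and 8 and 2 in RNA and 21 and 3 in RPFs at a distance of 2. Replicate numbers were shared between groups by number only. Same-numbered mice had deviations correlated at 0.206, 0.084 and 0.064 in RNA and 0.133, 0.003 and 0.075 in RPFs, and the replicate block gave 2684 higher and 2688 lower in RNA and 2635 and 2587 in RPFs. The 2 libraries of a mouse do share an animal, and that block gave 268 and 272 interactions. Of 6607 values of named genes under an alternative, 6405 kept direction and side of the threshold, 134 dropped below it, 52 rose above it and 16 turned. Those that turned were uncalled with all mice, except *Ctnnb1* RPF at 0.001 without TMM, and *Notum* RPF became a call without BM mouse 1 (adjusted p = 0.017) and with voom weights. They were *Notum* RPF at -0.542 (voom), -0.029 (replicate block) and -0.73 to 0.72 (1 mouse left out), *Ccnd1* RNA at -0.074 (voom) and -0.144 to 0.21 and *Ccnd1* RPF at -0.25 to 0.93 (1 mouse left out), *Mtor* RPF at -0.125 (voom) and -0.12 to 0.14, *Rpl28* RPF at -0.032 (voom) and -0.033 to 0.72, *Eif3f* RPF at -0.070 (voom) and -0.063 to 0.57, and *Deptor* RPF at 0.14 without TMM. The cause was not tested. RNA depth in BM was the lowest, which limits low genes there.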

Other observations

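The counts below stand beside 22.9% higher and 22.8% lower among all genes in RNA and 24.5% and 22.3% in RPFs, and where a list lies near these shares its count is no result about the list. Among genes of oncofetal and progenitor cells, 6 rose and 3 fell of 17 in RNA (4 and 4 of 17 in RPFs), and the median distance from WT in RPFs was 0.39, -0.78 and -0.89 in BM mice 1, 2 and 3. *Afp*, the fetal serum protein alpha-fetoprotein, had 1.51, 2.78 and 1.95 RPF CPM in WT and 35.7, 25.9 and 32.5 in BM, without overlap (3.91 ± 0.27 (SE, adjusted p = 0.00012), edgeR with Benjamini-Hochberg adjustment), while *Fabp5*, a fatty acid binding protein gene, fell from 121, 245 and 132 to 8.4, 7.6 and 4.61 CPM in RNA (-4.57 ± 0.34 (SE, adjusted p = 5.1e-05)). Interferon-related genes were 7 rose and 6 fell of 21 in RNA (6 and 7 of 21 in RPFs), and their median distance from WT was 1.26, 0.02 and -0.02 in RNA in BM mice 1, 2 and 3. *Usp18*, a brake on interferon signalling, was 15.4, 16.5 and 9.29 CPM in the WT mice and 53.6, 53.9 and 62.7 CPM in the BM mice in RNA (2.03 ± 0.21 (SE, adjusted p = 0.0002)). In the iron list, 6 rose and 5 fell of 15 in RNA (3 and 4 of 15 in RPFs). *Hamp2*, a hepcidin gene, had 33.3, 19.2 and 28.4 CPM in the WT mice and 59.3, 131 and 139 CPM in the BM mice, with all BM mice above WT and mouse 1 the least, and *Tfr2*, a sensor of iron load, fell from 278, 255 and 250.2 to 138, 108 and 101 CPM in RNA (-1.17 ± 0.15 (SE, adjusted p = 0.00064)), with an RPF change of -1.61 or -2.20 without BM mouse 1.

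In the conjugation list, which holds the sulfotransferases and glucuronosyltransferases, 12 rose and 23 fell of 46 in RNA (10 and 24 of 45 in RPFs), and in that of hepatocyte transcription factors 7 rose and 8 fell of 22 in RNA (6 and 7 of 22 in RPFs). *Onecut1*, a factor of hepatocyte and bile duct development, had log2 changes of -2.64 in RNA and -3.0 in RPFs, and *Ahr*, the aryl hydrocarbon receptor gene, of 1.27 in RNA and 1.40 in RPFs. For the MYC network the counts were 3 rose and 2 fell of 11 in RNA (6 and 2 of 11 in RPFs), with the MYC partner gene *Max* at 1.22 in RNA and 1.84 in RPFs, and for mTOR pathway genes 5 rose and 3 fell of 16 in RNA (6 and 0 of 17 in RPFs). Counts for G1 cyclins and their partners were 7 rose and 3 fell of 14 in RNA (6 and 5 of 17 in RPFs), for tRNA synthetases 10 rose and 2 fell of 20 in RNA (10 and 2 of 20 in RPFs), for mitochondrial ribosomal proteins 26 rose and 10 fell of 78 in RNA (29 and 7 of 77 in RPFs), for oxidative phosphorylation 22 rose and 11 fell of 77 in RNA (13 and 6 of 79 in RPFs) and for the proteasome 2 rose and 8 fell of 37 in RNA (4 and 6 of 38 in RPFs). For glycolysis they were 5 rose and 5 fell of 20 in RNA (5 and 6 of 20 in RPFs), for gluconeogenesis 2 rose and 1 fell of 7 in RNA (2 and 0 of 7 in RPFs), for cholesterol synthesis 3 rose and 8 fell of 25 in RNA (3 and 7 of 25 in RPFs), with distances of 0.62, -0.35 and -0.44 in RNA in the 3 mice, for amino acid catabolism 9 rose and 8 fell of 24 in RNA (9 and 6 of 25 in RPFs), for midlobular genes 2 rose and 3 fell of 5 in RNA (1 and 2 of 5 in RPFs) and for female-biased genes 1 rose and 4 fell of 5 in RNA (2 and 2 of 5 in RPFs), with RPF distances of 1.89, -0.55 and -0.61. Without BM mouse 1 the median change went from 0.18 to -0.40 for cholesterol synthesis in RNA, from 0.49 to -0.77 for female-biased genes in RPFs, from 0.71 to 0.06 for interferon-related genes in RNA and from -0.30 to -0.97 for oncofetal genes in RPFs. Among cholangiocyte markers 0 rose and 0 fell of 4 in RNA (0 and 1 of 4 in RPFs), among myeloid markers 0 rose and 1 fell of 2 in RNA (1 and 1 of 5 in RPFs), and among erythroid markers 0 rose and 1 fell of 5 in RNA (0 and 1 of 5 in RPFs).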
